A study of Mus musculus with 13 samples.

Results

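Transcripts of 10 genes of the Toll-like receptor system were followed in mouse brain after a transient stroke, in mice that kept their microglia and in mice that had lost most of them. They encode 6 receptors (Tlr2, Tlr3, Tlr4, Tlr7, Tlr9 and Tlr13), the receptor-like protein Cd180 with its partner Ly86, the co-receptor Cd14 and the adaptor Myd88. They were picked by gene name among the 21056 genes present in all 4 deposited tables, and all 10 passed the filter on low counts that left 16940 genes to be tested. RNA came from the brains of 13 male mice, each library from its own animal by its identifier. By their labels all groups, controls included, carried 1 CX3CR1creER allele, which places a Cre recombinase that needs tamoxifen under control of Cx3cr1, and 1 iDTR allele, a Cre-dependent diphtheria toxin receptor. The number of the Rosa locus in the genotype labels differs between libraries and was read as 1 genotype. All mice received 2 doses of tamoxifen at 7 to 8 weeks of age. After 30 days the depleted groups (DE) were given diphtheria toxin at 50 ng per g body weight on 3 days, and the control groups (CON) saline. In the tMCAO groups a filament closed the middle cerebral artery for 60 min before reperfusion, the other groups had sham surgery, and the surgical protocol gives an age of 6 to 8 weeks, which conflicts with tamoxifen at 7 to 8 weeks followed by 30 days. With sham surgery there were 3 control (sham_CON) and 4 depleted mice (sham_DE), and with occlusion 4 control (tMCAO_CON) and 2 depleted mice (tMCAO_DE). Cx3cr1 is active in microglia and in other mononuclear phagocytes, so the Cre is not specific to microglia. Neither the brain region nor the time after reperfusion was given in the labels used here.

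Toll-like receptors are leucine-rich repeat proteins that detect microbial molecules and products of damaged cells. Tlr2 and Tlr4 act at the cell surface, Tlr2 in pairs with Tlr1 or Tlr6 for lipoproteins, and Tlr4 with Cd14 and Ly96 for lipopolysaccharide. Tlr3, Tlr7, Tlr9 and Tlr13 act in endosomes and bind double-stranded RNA, single-stranded RNA, unmethylated CpG DNA and bacterial ribosomal RNA. Myd88 carries the signal of all of these receptors except Tlr3, which uses Ticam1. Cd180 resembles Tlr4 outside the cell, lacks the intracellular signalling domain and is held at the surface by Ly86. In the brain, microglia express most of the family, and Tlr3 is also known from astrocytes and neurons.

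Libraries held 16239763 to 22080367 counts. Levels are given as CPM, counts relative to the TMM-adjusted total of the library. Changes are given on the log2 scale ± their standard error, from 1 edgeR model over the 13 libraries, with p adjusted over all genes tested and a threshold of 0.05. The depletion was visible in the 12 microglia markers, whose sum had a range of 332 to 353 CPM over the sham_CON libraries, 330 to 438 CPM over tMCAO_CON, 41.8 to 78.7 CPM over sham_DE and 54.2 to 59.1 CPM over tMCAO_DE. No marker was at 0 in every library of a group. Cx3cr1, the Cre locus and 1 of these markers, was at 24.2 CPM (404 counts) in sham_CON replicate 2, against 1.13 and 1.19 CPM in the other sham_CON libraries and 1.05 to 2.09 CPM in tMCAO_CON. This library thus stood apart from control libraries of the same labelled genotype, and results that rest on it are given with and without it. Csf1r, the growth factor receptor of microglia, averaged 92.7 ± 0.718 CPM in sham_CON (SD, n = 3) and 9.96 ± 4.35 CPM in sham_DE (n = 4). The sum of the 7 markers of border macrophages went the other way. It was 6.33 to 8.67 CPM in sham_CON, 30.4 to 41.7 CPM in sham_DE, 13.7 to 24.5 CPM in tMCAO_CON and 35.7 to 46.9 CPM in tMCAO_DE. Of the 7, Ms4a7 was lower in tMCAO_DE than in tMCAO_CON, with means of 0.253 and 0.436 CPM. Neutrophil markers, 8 in all, summed to 34.5 CPM in sham_CON replicate 2 and 35.1 CPM in sham_DE replicate 3, against at most 13.6 CPM in every other library, with Cxcr2 at 0 counts in sham_CON and Ly6g in tMCAO_CON. The astrocyte glutamate transporter Slc1a2 was at 489 CPM in sham_DE replicate 2 and 511 CPM in tMCAO_DE replicate 1, against 2200 to 3100 CPM elsewhere, whereas Aqp4, Aldh1l1, Gja1 and Gfap lay near the values of the other libraries of their groups, Aqp4 at 69.1 and 65.8 CPM for example. For replicate 4 of tMCAO_CON the treatment field names sham surgery, whereas title and description name the occlusion, which was followed. In bulk RNA, fewer cells of a type and less RNA per cell cannot be told apart.

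The stretches before the start sites are shown because Cd180 and Tlr13 passed the test for a response to stroke that differed between control and depleted mice, while Tlr2 was higher and Tlr9 lower after depletion alone. RefSeq start sites on GRCm38.p6 were matched by symbol for 7 of the 10 genes. Each stretch reads 5′ to 3′ on the strand of its gene within the 250 bases before that start, and ends at that start or at the first exon in GENCODE, whichever comes first. Capitals mark a match to one of the 6 motifs searched.
Tlr2, chr3:83841768-83841858, minus strand: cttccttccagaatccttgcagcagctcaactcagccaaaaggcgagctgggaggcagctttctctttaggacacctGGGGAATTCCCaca
Tlr9, chr9:106222348-106222597, plus strand: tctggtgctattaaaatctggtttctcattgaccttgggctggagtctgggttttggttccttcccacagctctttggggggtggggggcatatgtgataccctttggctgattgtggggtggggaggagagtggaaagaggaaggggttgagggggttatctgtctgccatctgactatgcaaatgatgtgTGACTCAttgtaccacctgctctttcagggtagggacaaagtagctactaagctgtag
Tlr13, chrX:106143025-106143203, plus strand: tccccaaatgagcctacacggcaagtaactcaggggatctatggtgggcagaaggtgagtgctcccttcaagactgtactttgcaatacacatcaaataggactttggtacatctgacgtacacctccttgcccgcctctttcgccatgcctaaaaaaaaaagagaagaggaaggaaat
Cd180, chr13:102693297-102693546, plus strand: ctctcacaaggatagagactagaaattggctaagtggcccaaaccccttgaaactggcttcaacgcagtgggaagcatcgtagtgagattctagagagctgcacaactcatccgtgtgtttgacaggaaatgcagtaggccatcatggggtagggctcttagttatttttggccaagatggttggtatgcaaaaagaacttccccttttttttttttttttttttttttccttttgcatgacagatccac

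On both strands of the 250 bases, the motifs searched were the kappa B consensus, AP-1 (TGACTCA), PU.1 (GAGGAAGT), an ETS-IRF composite (GGAA, any 2 bases, GAAA), an IRF site pair (GAAA, any 2 bases, GAAA) and the TATA box (TATAAA). The PU.1, composite and pair motifs share letters and can overlap. The kappa B consensus, the binding sequence of NF-kB factors, was found before Tlr2 as the overlapping letters GGGGAATTCC and GGGAATTCCC, and in the window of Tlr3 as GGGAGTTTCC. It occurs in 3.9% of all 32851 start-site windows of this length. Tlr9 held an AP-1 match, which 4.46% of windows hold. The window of Myd88 held an IRF site pair (2.98% of windows) and overlapping TATA matches on both strands (12.4%). For Tlr3 and Myd88 all 250 bases lie inside the gene as GENCODE draws it, so these matches are not before its first exon there. The windows of Tlr13, Cd180 and Ly86 held no match to these letters, the PU.1 motif included, which 2.44% of all windows hold, and the composite (2.3%) was found in none of the 7. A match is only a match of letters.

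On GRCm38 (mm10), Tlr2 lies on chromosome 3 from 83836272 to 83841767, Tlr9 on chromosome 9 from 106222598 to 106226883, Tlr13 on chromosome X from 106143204 to 106160493 and Cd180 on chromosome 13 from 102693558 to 102739629. Ly86 lies on chromosome 13 from 37345208 to 37419036, Myd88 on chromosome 9 from 119335934 to 119341411 and Tlr3 on chromosome 8 from 45395665 to 45411080. Cd14 lies on chromosome 18 from 36725067 to 36726798 as 1 exon block, Tlr4 on chromosome 4 from 66827584 to 66930284 and Tlr7 on chromosome X from 167304929 to 167330558. On the opposite strand, exons of Acaa1a cover 11.3% of the exon bases of Myd88, Gm45542 7.3% of Tlr3 and Mast4 4.0% of Cd180. Whether counting used strand is not given in the sources used here, so reads in these overlaps cannot be assigned. Mast4 averaged 91.8 CPM in sham_CON and 72.4 CPM in tMCAO_CON, and Acaa1a 51.2 and 45.2 CPM, and neither passed the test between those groups (edgeR adjusted p = 0.15 and 0.45). Between tMCAO_CON and tMCAO_DE, Acaa1a was lower after depletion, by a log2 difference of -0.60 ± 0.16 (edgeR adjusted p = 0.02).

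Levels between genes were compared per length, as FPKM, over the libraries of a group. In the intact sham brain, Ly86 was the most abundant at 6.18 ± 2.09 FPKM (SD, n = 3), above Tlr3 at 2.65 ± 0.295 FPKM without overlap between libraries. Cd14 at 1.13 ± 0.335 FPKM and Myd88 at 1.10 ± 0.164 FPKM overlapped each other. Tlr13 followed at 0.595 ± 0.0237 FPKM, apart from both its neighbours. Tlr9, Tlr2 and Cd180 lay together at 0.309 to 0.316 FPKM with overlapping ranges, and Tlr4 at 0.21 ± 0.0624 FPKM and Tlr7 at 0.187 ± 0.0983 FPKM were lowest and overlapped. Apart from Ly86, Tlr3, Cd14 and Myd88, the group thus stayed below 1 FPKM, and counting error is large for these genes. Tlr9, for example, had 13 to 27 counts in the sham_CON libraries.

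**Figure D1:**
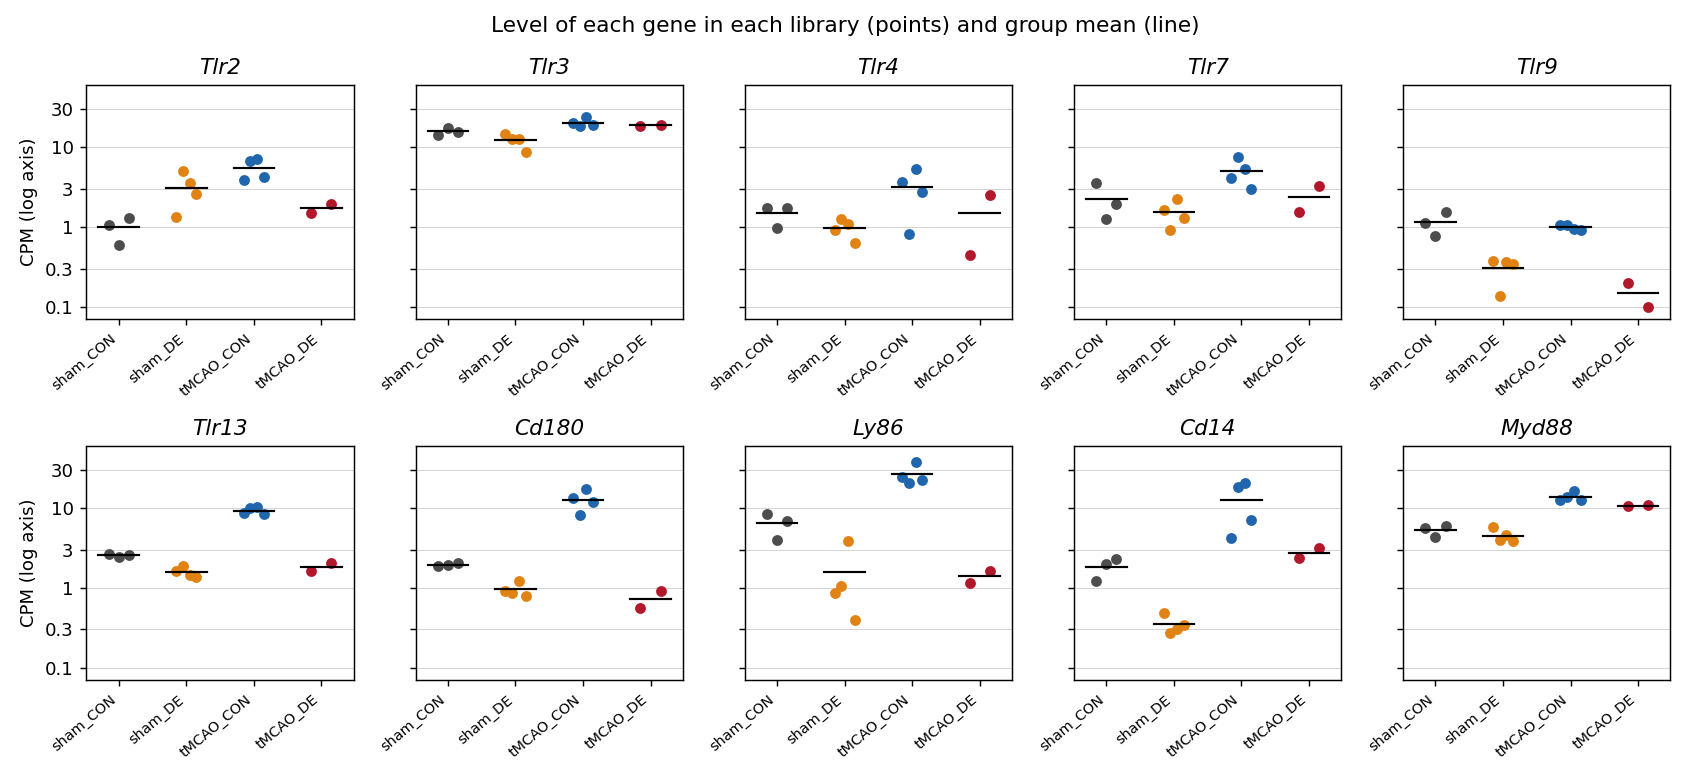
Level of each of the 10 genes in CPM (log axis) in each of the 13 libraries, with the group mean as a line. Cd180, Ly86 and Tlr13 are high in the 4 tMCAO_CON libraries and low in both depleted groups, whereas Myd88 and Tlr3 differ little between depleted and control mice.

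Depletion without stroke (sham_DE, n = 4, against sham_CON, n = 3) shows how the transcripts stood in a brain short of microglia. Of the 10 genes, 5 fell (Tlr9, Cd14, Ly86, Cd180 and Tlr13) and Tlr2 rose. Among all genes tested, 11.3% passed the test in this comparison, 4.49% lower and 6.85% higher. The groups did not overlap for 6 of the 10 genes, against 22.9% of all genes. The median log2 change of the 10 genes was -0.64, and that of all genes 0.

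At the cell surface, Tlr2 stood at 1.07, 0.598 and 1.3 CPM in the sham_CON libraries, in replicate order, and at 1.35, 4.96, 3.54 and 2.62 CPM in sham_DE. Every sham_DE library was above every sham_CON library, with replicate 1 of sham_DE just above the highest of them. The rise was 1.65 ± 0.43 (edgeR adjusted p = 0.028), which is 3.14-fold. In the same comparison 6 of 7 border macrophage markers rose. The sum of the 7 was 41.7, 36.6, 30.4 and 40.8 CPM in sham_DE, in replicate order. In sham_CON it was 6.33 to 8.67 CPM. The part of these markers in the rise of Tlr2 was not tested. The call ended without any single sham_CON library or without sham_DE replicate 2, 3 or 4 (adjusted p up to 0.16).

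Cd14, a lipid-anchored or soluble co-receptor that hands lipopolysaccharide to Tlr4, stood at 1.23, 1.97 and 2.32 CPM in sham_CON, and at 0.487, 0.273, 0.305 and 0.342 CPM in sham_DE. All depleted libraries were below all control libraries, at 5 to 9 counts each. The fall was -2.37 ± 0.64 (edgeR adjusted p = 0.032), the largest estimate of the 10, and left 19.1% of the control level. Ly86 stood at 8.32, 4.01 and 6.89 CPM in sham_CON, and at 0.865, 1.05, 3.9 and 0.399 CPM in sham_DE. The groups came close only through sham_DE replicate 3 and sham_CON replicate 2, the pair of libraries with high neutrophil markers. The microglia marker sum was also highest of its group in sham_DE replicate 3, at 78.7 CPM against 41.8 to 56.9 CPM. In sham_CON replicate 2 it was lowest of its group, at 332 CPM against 345 and 353 CPM. The part of either set of markers in this was not tested. Ly86 fell by 2.08 ± 0.50 (edgeR adjusted p = 0.022). Over 19 alternative settings, among them the removal of single libraries and of this pair, the estimate lay between -3.26 and -1.78. Cd180 stood at 1.88, 1.91 and 2.03 CPM in sham_CON, and at 0.919, 0.864, 1.22 and 0.798 CPM in sham_DE. It was nearly even within each group and fell by 1.03 ± 0.28 (edgeR adjusted p = 0.035), to 48.9% of the control level.

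Tlr4 was at 1.72, 0.957 and 1.75 CPM in sham_CON and at 0.919, 1.27, 1.1 and 0.627 CPM in sham_DE, with overlap. Its log2 change of -0.58 ± 0.61 did not pass (edgeR adjusted p = 0.56).

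Among the endosomal receptors, Tlr9 stood at 1.13, 0.778 and 1.53 CPM in sham_CON, and at 0.378, 0.136, 0.366 and 0.342 CPM in sham_DE. The groups were apart, and Tlr9 fell by 1.91 ± 0.37 (edgeR adjusted p = 0.0094). Of the 6 calls in this comparison, this was the call that held in each of 19 alternative settings, with adjusted p between 0.0019 and 0.048. Tlr13 stood at 2.68, 2.45 and 2.6 CPM in sham_CON, and at 1.62, 1.86, 1.46 and 1.37 CPM in sham_DE, and fell by 0.70 ± 0.17 (edgeR adjusted p = 0.021). It kept 61.3% of the control level, while Csf1r fell by 3.22 ± 0.24 and each of the 12 microglia markers fell, with a median of -3.33. For Cx3cr1 (-3.52 ± 1) the groups overlapped and the call rested on sham_CON replicate 2, without which it was at -0.61 (edgeR adjusted p = 0.66) and the other 11 still fell, with a median of -3.40.

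Tlr3 at -0.36 ± 0.15 (edgeR adjusted p = 0.13), Tlr7 at -0.58 ± 0.43 (0.41) and the adaptor Myd88 at -0.24 ± 0.17 (0.37) did not pass the test. The level of Myd88 was 5.53, 4.37 and 5.99 CPM in sham_CON, against 5.73, 3.91, 4.51 and 3.82 CPM in sham_DE, with overlap. These intervals leave room for moderate falls, most of all for Tlr4 and Tlr7.

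The number of genes called here depended on single libraries. It was 1 without sham_CON replicate 1 or 3, 3 without sham_CON replicate 2, and 2, 4 and 1 without sham_DE replicates 2, 3 and 4. It was 7 without sham_DE replicate 1. The calls that ended, with adjusted p up to 0.16, were Cd14 and Tlr2 without any of these libraries, and Cd180 without any of them except sham_DE replicate 3. Ly86 and Tlr13 lost theirs without sham_CON replicate 1 or 3 or sham_DE replicate 4, and Ly86 also without sham_DE replicate 2. Without sham_CON replicate 2 and sham_DE replicate 3 together, 2 of the 10 passed, Tlr9 and Ly86.

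**Figure D2:**
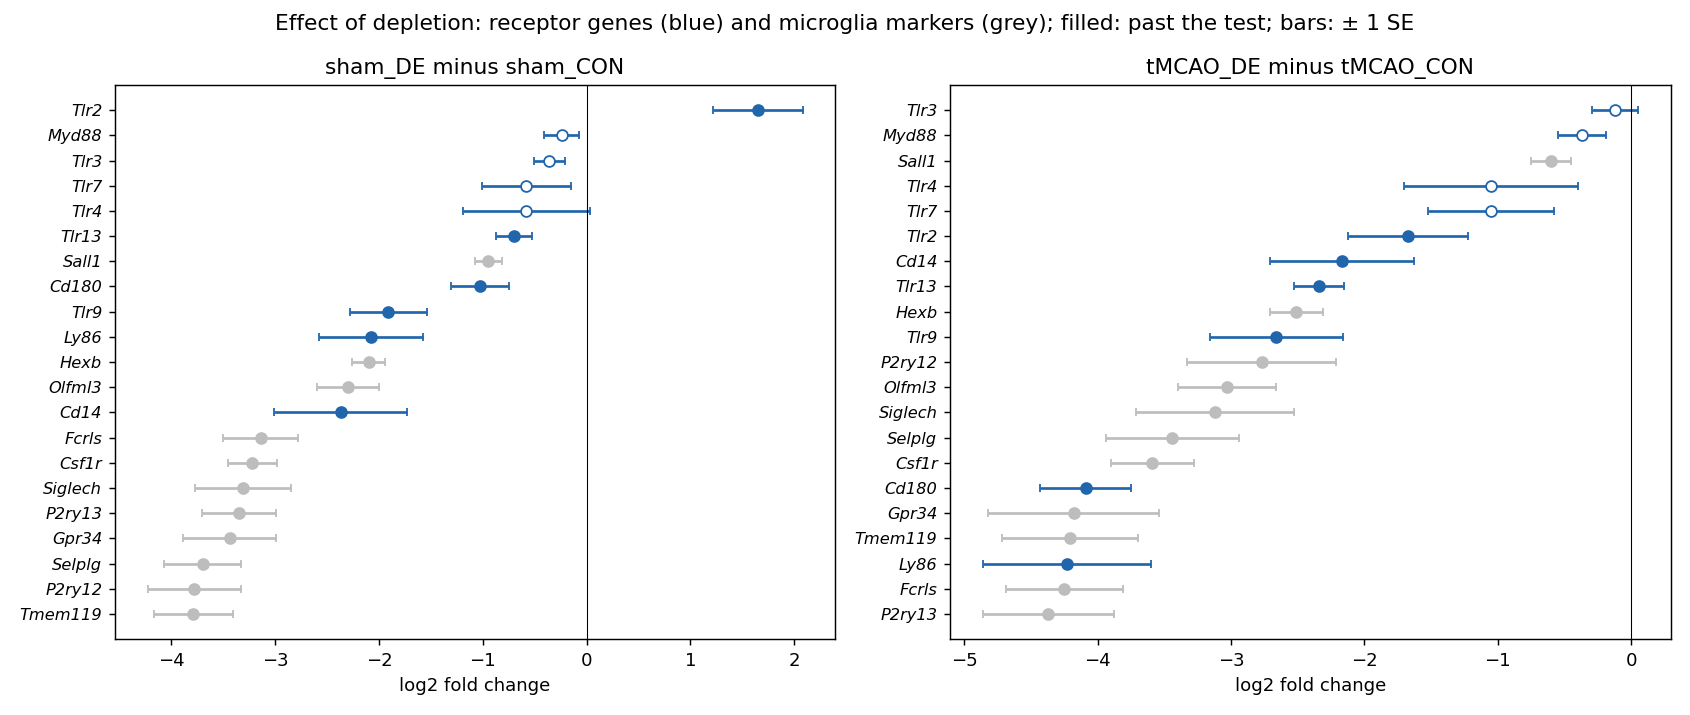
Log2 fold change ± 1 standard error of the receptor genes (blue) and of the microglia markers other than Cx3cr1, the Cre locus (grey), after depletion in sham mice (left) and occluded mice (right), with filled points past the test. In occluded mice Cd180 at -4.09 and Ly86 at -4.23 lie among the microglia markers, whereas in sham mice Cd180 lies at -1.03.

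Stroke with microglia present (tMCAO_CON, n = 4, against sham_CON, n = 3) shares its control libraries with the comparison above. Here 6 of the 10 genes rose, namely Cd14, Cd180, Tlr2, Ly86, Tlr13 and Myd88. Among all genes, 5.14% rose and 3.31% fell, 8.44% in all. The groups did not overlap for 7 of the 10, against 23.6% of all genes, and the median change of the 10 was 1.61, against 0.02 for all genes.

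Cd14 reached 4.14, 18.3, 20.2 and 7.08 CPM in tMCAO_CON, all above the highest sham_CON library at 2.32 CPM, and the libraries of the occluded group differed widely among themselves. The rise was 2.75 ± 0.49 (edgeR adjusted p = 0.005), or 6.75-fold. Cd180 reached 13.2, 8.06, 17.3 and 11.9 CPM, against 1.88 to 2.03 CPM in sham_CON, and rose by 2.69 ± 0.25 (edgeR adjusted p = 5.5e-05), or 6.47-fold. Its lowest occluded library was still several times above every sham_CON library. Ly86, its partner, reached 24.6, 20.6, 37.1 and 22.4 CPM and rose by 2.02 ± 0.44 (edgeR adjusted p = 0.014), a call that ended without sham_CON replicate 2 or 3 (adjusted p up to 0.06). Tlr2 reached 3.86, 6.71, 7.12 and 4.17 CPM and rose by 2.45 ± 0.42 (edgeR adjusted p = 0.0041).

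Tlr13 reached 8.55, 9.93, 10.1 and 8.29 CPM, the tightest of the risen groups, and rose by 1.83 ± 0.16 (edgeR adjusted p = 3.1e-05). Myd88 reached 12.6, 13.5, 16.4 and 12.7 CPM against 5.53, 4.37 and 5.99 CPM in sham_CON and rose by 1.38 ± 0.16 (edgeR adjusted p = 0.00038). Both groups were well apart. The calls of Tlr2, Tlr13, Cd180, Cd14 and Myd88 held in each of 19 alternatives, the removal of tMCAO_CON replicate 4 among them. Csf1r stood at 92.7 ± 0.718 CPM in sham_CON and 87.9 ± 8.92 CPM in tMCAO_CON. Of the 12 microglia markers 2 rose and 0 fell past the test, with 5 estimates above 0, 7 below and a median of -0.11. Their means ran from 317% of sham_CON for Fcrls to 51.6% for P2ry12. Cx3cr1, high in sham_CON replicate 2, was at 17.2%. Of the 7 border macrophage markers 4 rose, and of the 4 tested monocyte markers 1, Fn1. Fn1 was at 59.8 to 111 CPM in sham_CON against 116 to 175 CPM in tMCAO_CON. Ly6c2, Ccr2, Plac8 and Chil3, the other monocyte markers listed, were at most at 1.76 CPM in any library. Their part in the rise of the receptor genes was not tested.

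The remaining endosomal receptors and Tlr4 did not pass. Tlr3 stood at 14.2, 17.5 and 15.5 CPM in sham_CON, and at 20.2, 18.4, 23.5 and 19 CPM in tMCAO_CON, apart but by a small step of 0.37 ± 0.15 (edgeR adjusted p = 0.15). Tlr7 changed by 1.14 ± 0.41 (edgeR adjusted p = 0.11). Tlr4 ranged from 0.815 to 5.29 CPM in tMCAO_CON, the former in replicate 2, and changed by 1.07 ± 0.57 (0.28). Tlr9, at 0.922 to 1.05 CPM in tMCAO_CON and 0.778 to 1.53 CPM in sham_CON, changed by -0.21 ± 0.33 (0.76). Among the 10 genes, Tlr9 alone had an estimate below 0.

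After depletion, the same surgery (tMCAO_DE, n = 2, against sham_DE, n = 4) was followed by fewer rises, in Cd14, Myd88 and Tlr3. Among all genes 6.59% rose and 5.84% fell, 12.4% in all. The groups did not overlap for 3 of the 10, which is near the 37.2% of all genes. The median change of the 10 was 0.39, against 0 for all genes.

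Cd14 stood at 2.36 and 3.14 CPM in tMCAO_DE, against 0.273 to 0.487 CPM in sham_DE, and rose by 2.95 ± 0.65 (edgeR adjusted p = 0.013), or 7.73-fold. Both occluded libraries lay above the highest sham_CON library at 2.32 CPM. Myd88 stood at 10.4 and 10.8 CPM, against 3.82 to 5.73 CPM in sham_DE, and rose by 1.24 ± 0.18 (edgeR adjusted p = 0.0013), a call that held in each of 19 alternatives. Tlr3 stood at 18.6 and 18.7 CPM, against 14.6, 12.8, 12.6 and 8.78 CPM in sham_DE, and rose by 0.61 ± 0.16 (edgeR adjusted p = 0.029). The calls of Cd14 and Tlr3 ended without either tMCAO_DE library (adjusted p up to 0.1 and 0.15), where the remaining library was assumed to vary like the other groups.

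Tlr2, the gene that depletion alone had raised, stood at 1.51 and 1.92 CPM in tMCAO_DE, inside the range of sham_DE, at -0.87 ± 0.45 (edgeR adjusted p = 0.23). Tlr13 at 1.61 and 2.03 CPM (0.19 ± 0.19, edgeR adjusted p = 0.62), Cd180 at 0.552 and 0.911 CPM (-0.37 ± 0.37, 0.56) and Ly86 at 1.16 and 1.62 CPM (-0.12 ± 0.66, 0.93) lay at or near their sham_DE levels. For Ly86 the estimate depended on sham_DE replicate 3, without which it was 0.81. Tlr4 at 0.452 and 2.53 CPM and Tlr7 at 1.56 and 3.24 CPM differed so much between the pair of libraries that their changes of 0.59 ± 0.67 and 0.67 ± 0.48 say little. Tlr9 had 4 and 2 counts, or 0.201 and 0.101 CPM, and its change of -0.96 ± 0.56 did not pass (edgeR adjusted p = 0.31).

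Within the occluded brain (tMCAO_DE, n = 2, against tMCAO_CON, n = 4), 6 of the 10 genes were lower after depletion, namely Ly86, Cd180, Tlr9, Tlr13, Cd14 and Tlr2. Among all genes 9.26% were lower and 9.36% higher, 18.6% in all. The groups did not overlap for 7 of the 10, against 45.5% of all genes, and the median change of the 10 was -1.92, against -0.01 for all genes.

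Ly86 averaged 26.2 ± 7.44 CPM in tMCAO_CON and 1.39 ± 0.329 CPM in tMCAO_DE, a difference of -4.23 ± 0.63 (edgeR adjusted p = 0.0018), or 18.8-fold. Cd180 averaged 12.6 ± 3.81 and 0.732 ± 0.254 CPM, a difference of -4.09 ± 0.34 (edgeR adjusted p = 3.6e-05), or 17.1-fold. Of the 12 microglia markers 11 passed as lower, with all 12 estimates below 0 and a median of -3.51 over the list. Without sham_CON replicate 2 all 12 passed, Cx3cr1 at -5.59 (edgeR adjusted p = 0.02). Tlr13 differed by -2.34 ± 0.19 (edgeR adjusted p = 3.6e-05) and Tlr9 by -2.66 ± 0.50 (0.0052), the latter with 6 counts in the depleted group. Cd14 differed by -2.17 ± 0.54 (edgeR adjusted p = 0.017) and Tlr2 by -1.67 ± 0.45 (0.024). Tlr2 was thus higher after depletion in sham mice and lower after depletion in occluded mice.

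Myd88 at 10.4 and 10.8 CPM lay just below the lowest tMCAO_CON library at 12.6 CPM, a difference of -0.37 ± 0.18 that did not pass (edgeR adjusted p = 0.15). Tlr3 differed by -0.12 ± 0.17 (edgeR adjusted p = 0.64), Tlr4 by -1.05 ± 0.65 (0.27) and Tlr7 by -1.05 ± 0.47 (0.13). The calls of Ly86, Cd180 and Tlr13 held in each of 19 alternatives. The others rested in part on the small depleted group. Cd14 and Tlr2 lost theirs without either tMCAO_DE library, and Tlr9 without tMCAO_DE replicate 2, where a single depleted library remained. Cd14 also lost its call with only the groups compared in the fit, and Tlr2 without tMCAO_CON replicate 3. Over all alternatives the estimates lay between -2.45 and -1.84 for Cd14 and between -1.85 and -1.50 for Tlr2. For Tlr9 they lay between -3.21 and -2.27.

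The difference between the response to stroke after depletion and with microglia was tested as an interaction. Of the 10 genes 2 passed, Cd180 and Tlr13, both with a lower response after depletion. Among all genes 8 passed, which is 0.0472% (0.0413% lower, 0.0059% higher), and 9.72% were at an unadjusted p under 0.05. For Cd180, the response was 2.69 with microglia and -0.37 after depletion, a difference of -3.06 ± 0.44 (edgeR adjusted p = 0.028). For Tlr13 it was 1.83 and 0.19, a difference of -1.64 ± 0.25 (edgeR adjusted p = 0.036). Tlr2 had the largest difference of the 10 at -3.32 ± 0.62, from 2.45 and -0.87, and did not pass (edgeR adjusted p = 0.11), although it passed by DESeq2 (adjusted p = 0.00011) and without sham_DE replicate 1 (edgeR adjusted p = 0.031). Ly86 differed by -2.14 ± 0.79 (edgeR adjusted p = 0.42), so that Cd180 and its partner fell on different sides of the threshold with overlapping errors.

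For Cd14 and Myd88 the responses were close, with differences of 0.20 ± 0.78 (edgeR adjusted p = 0.96) and -0.13 ± 0.24 (0.9). The error of Cd14 does not exclude a difference of more than 2-fold either way, while that of Myd88 is narrow. Tlr3 at 0.24 ± 0.22, Tlr4 at -0.47 ± 0.89, Tlr7 at -0.47 ± 0.64 and Tlr9 at -0.75 ± 0.64 did not pass either (edgeR adjusted p = 0.75 to 0.9). The calls of this test were fragile. That of Cd180 ended when any of 7 libraries was left out, namely the 3 of sham_CON, sham_DE replicates 2 and 3 and both of tMCAO_DE (adjusted p up to 0.17), and that of Tlr13 with any of 11, all except sham_DE replicates 1 and 4 (up to 0.18). The estimates stayed between -3.46 and -2.74 for Cd180 and between -1.81 and -1.48 for Tlr13 in all alternatives.

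**Figure D3:**
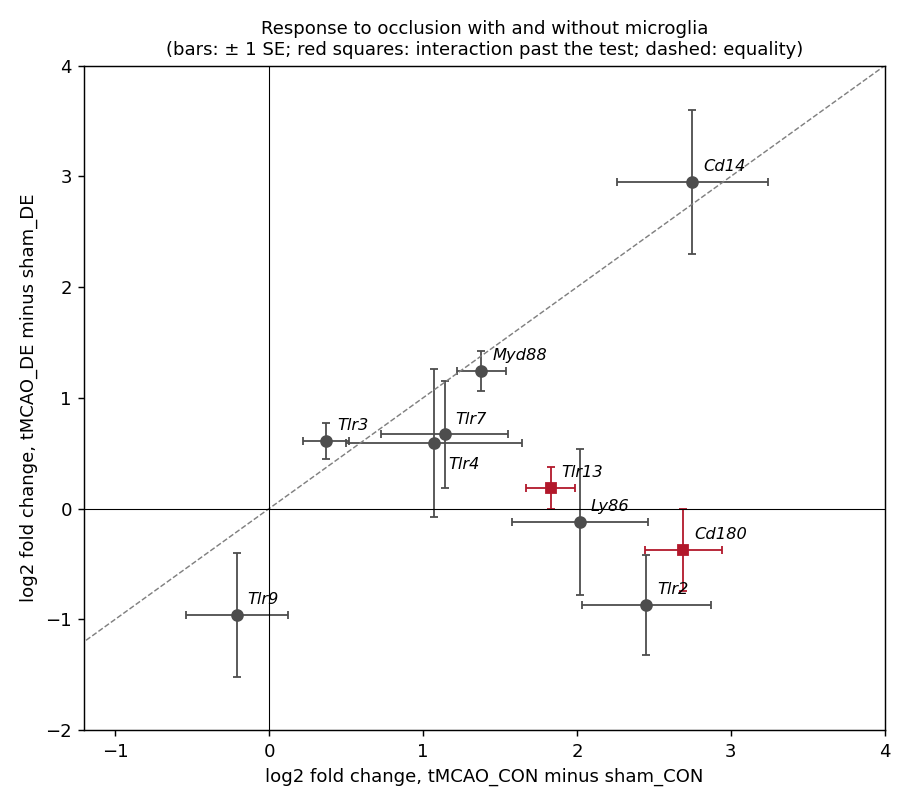
Log2 fold change of each gene after occlusion with microglia present (horizontal) and after depletion (vertical), with bars of ± 1 standard error and a dashed line of equality. Cd14, Myd88 and Tlr3 lie near the line, whereas Cd180 and Tlr13 (red squares, past the interaction test), Tlr2 and Ly86 lie far below it.

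The order of the 10 genes by FPKM changed between groups. In tMCAO_CON, Ly86 led at 27.1 ± 8.03 FPKM (n = 4), clear of Cd14 at 8.16 ± 5.31 FPKM, which overlapped Tlr3 at 3.66 ± 0.459 FPKM, which in turn overlapped Myd88 at 3.08 ± 0.423 FPKM. Below a gap, Tlr13, Cd180 and Tlr2 at 2.27, 2.15 and 1.87 FPKM overlapped, and below another gap so did Tlr4, Tlr7 and Tlr9 at 0.478, 0.445 and 0.293 FPKM. In both depleted groups Tlr3 led, at 2.09 ± 0.4 FPKM in sham_DE, where Ly86, Tlr2 and Myd88 followed with overlap, and at 3.29 ± 0.0175 FPKM in tMCAO_DE (n = 2). There Myd88 was next at 2.33 ± 0.0389 FPKM without overlap, then Cd14 at 1.77 ± 0.338 FPKM and Ly86 at 1.4 ± 0.32 FPKM, which overlapped. Tlr9 was lowest in every group except sham_CON, at 0.044 ± 0.0209 FPKM in tMCAO_DE.

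Across the 13 libraries, the non-member genes most like each member were sought among 14813 genes with a mean of at least 1 CPM, by Pearson's r on log2 CPM. These values describe libraries that share groups and depth. Tlr13 was most like Tlr1 (r = 0.979) and Plek (0.977), and Cd180 most like Tlr1 (0.965) and Pik3ap1 (0.965). Ly86 was most like Clec5a (0.985) and Tyrobp (0.983), an adaptor of myeloid receptors. Cd14 was most like Tnfrsf1b (0.981), a receptor for tumour necrosis factor, and Ehd4 (0.968), and Myd88 like Tnc (0.978), the matrix protein tenascin C, and Hsp25-ps1 (0.973). Tlr3 was most like Ecscr (0.965) and Psmb8 (0.961), Tlr7 like Nmi (0.912) and Tmem14c (0.906), and Tlr9 like Uhmk1 and Pla2g6 (both 0.95). Tlr2 was most like the chemokine Ccl4 (0.918) and the oxidase subunit Cybb (0.905), and Tlr4 like Prrx1 (0.867) and Tank (0.843). Within the group, Cd180 and Tlr13 were closest (r = 0.972), then Cd180 and Ly86 (0.933), while Tlr2 and Tlr9 were the pair least alike (0.012).

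The rest of the pathway was described with 9 lists of 82 genes, of which 75 were tested. Partner receptors came first. Tlr1 averaged 0.644 ± 0.154 CPM in sham_CON and 3.75 ± 0.658 CPM in tMCAO_CON, a rise of 2.53 ± 0.32 (edgeR adjusted p = 0.00062), and 0.252 ± 0.0728 CPM in tMCAO_DE, a log2 difference of -3.86 ± 0.43 from tMCAO_CON (0.00037). Tlr6 fell by 1.75 ± 0.38 with depletion in sham mice (edgeR adjusted p = 0.016) and was at 0.19 ± 0.33 with stroke (0.79). The difference between Tlr1 and Tlr6, both partners of Tlr2, was not tested. Ly96, the partner of Tlr4, fell by 1.42 ± 0.41 with depletion (edgeR adjusted p = 0.039) and stood at -0.02 ± 0.37 with stroke (0.98). Cd36, a scavenger receptor that presents lipids to Tlr2, rose by 2.27 ± 0.47 with stroke (edgeR adjusted p = 0.011).

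Endosomal receptors depend on Unc93b1, which carries them from the endoplasmic reticulum. Unc93b1 averaged 12.3 CPM in sham_CON and 4.91 CPM in sham_DE (-1.32 ± 0.14, edgeR adjusted p = 0.00027), and 13.6 CPM in tMCAO_CON and 5.45 CPM in tMCAO_DE (-1.31 ± 0.16, 0.00062). It did not rise with stroke (0.14 ± 0.13, edgeR adjusted p = 0.57), and the interaction estimate was 0.00 ± 0.20. Slc15a3, an endolysosomal transporter, rose by 2.33 ± 0.25 with stroke (edgeR adjusted p = 0.00018) and differed by -2.37 ± 0.29 between tMCAO_DE and tMCAO_CON (0.00062). Lamp5, which is abundant in neurons, fell by 0.57 ± 0.15 with stroke (edgeR adjusted p = 0.038). Among the 5 adaptors 2 fell with depletion in sham mice (40%, against 4.49% of all genes) and 1 rose (20%, against 6.85%). The gene that rose was Sarm1, a negative regulator of Ticam1 that is abundant in neurons (0.57 ± 0.14, edgeR adjusted p = 0.023). Ticam2, which links Tlr4 to Ticam1, fell by 1.55 ± 0.41 with depletion in sham mice (edgeR adjusted p = 0.031) and differed by -2.62 ± 0.51 in occluded mice (0.0058). Pik3ap1 fell by 1.47 ± 0.23 (edgeR adjusted p = 0.0042), rose by 1.70 ± 0.21 with stroke (0.00047) and differed by -3.09 ± 0.28 after depletion in occluded mice (6.2e-05). Tirap and Ticam1 did not pass in any of the 5 comparisons.

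Kinases and ligases act downstream of Myd88 and Ticam1. With stroke and microglia, 2 of 15 rose (13.3%, against 5.14% of all genes), and the median of the list was 0.08. Irak1 rose by 0.30 ± 0.09 (edgeR adjusted p = 0.049) and Peli1 by 0.27 ± 0.08 (0.042). With depletion in sham mice Tab1 rose and Traf3 fell (6.67% each, against 6.85% and 4.49% of all genes). With stroke after depletion Irak2 and Peli1 rose (13.3%, against 6.59%) and Ikbkb fell (6.67%, against 5.84%). After depletion in occluded mice 2 of the 15 were higher, Irak2 and Tab1 (13.3%, against 9.36% of all genes). As many were lower, Traf3 and Ikbkb (13.3%, against 9.26%), and the median was -0.03. Irak2, a kinase recruited to Myd88, averaged 10.8 ± 3.2 CPM in tMCAO_CON and 20.5 ± 0.701 CPM in tMCAO_DE, 0.92 ± 0.23 higher (edgeR adjusted p = 0.016). Among 11 transcription factors, 4 rose with stroke and microglia (36.4%, against 5.14% of all genes). They were led by Spi1, the gene of the myeloid factor PU.1, at 1.43 ± 0.20 (edgeR adjusted p = 0.0011). Nfkb2 at 1.41 ± 0.29 (0.0097) and Irf5 at 1.02 ± 0.21 (0.012) followed. With depletion in sham mice Irf5, Irf8, Spi1 and Irf3 fell (36.4%, against 4.49%). Nfkb2, Relb and Rela, named here after their values were seen, rose (27.3%, against 6.85%), Relb by 1.33 ± 0.27 (edgeR adjusted p = 0.012).

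Of 11 genes listed as pathway inhibitors, 3 rose with stroke and microglia (27.3%, against 5.14% of all genes), namely Socs3, Nfkbia and Nfkbiz. Whether each listed gene, Nfkbiz included, acts as an inhibitor here was not tested. With stroke after depletion 4 rose (36.4%, against 6.59%), namely Socs3, Nfkbiz, Tollip and Irak3. The remaining members did not pass. After depletion in occluded mice Tollip, Nfkbia and Nfkbiz were higher and Tnfaip8l2 lower, and in sham mice Nfkbia rose and Tnfaip8l2 fell. Socs3 rose by 2.48 ± 0.31 with stroke and microglia (edgeR adjusted p = 0.0005) and by 2.39 ± 0.31 with stroke after depletion (0.00081). Irak3, which blocks Irak signalling, rose by 1.16 ± 0.34 with stroke after depletion (edgeR adjusted p = 0.042). It was at 0.69 ± 0.33 with stroke and microglia (0.23). Of 10 tested targets that Toll-like receptors induce in myeloid and other cells, 7 rose with stroke and microglia (70%, against 5.14% of all genes). Their list had a median of 1.74. With stroke after depletion 3 of 10 rose (30%, against 6.59%), with a median of 0.35. Ptgs2, the inducible cyclooxygenase, rose in both, by 1.27 ± 0.17 (edgeR adjusted p = 0.00081) and 1.60 ± 0.18 (0.00027), and so did Ccl2 and Il6. The costimulatory molecule Cd86 fell with depletion in sham mice (-1.53 ± 0.34, edgeR adjusted p = 0.016). Icam1, Cxcl10 and Ccl2 of the same list rose there, Icam1 from 2.4 ± 1.39 to 12.5 ± 3.3 CPM. Of 9 endogenous ligands, Hspa1a, Hspd1 and Tnc rose in both stroke comparisons (33.3%, against 5.14% and 6.59% of all genes). Tnc rose by 3.10 ± 0.44 (edgeR adjusted p = 0.0015) and 2.94 ± 0.47 (0.0023).

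Of all 75 pathway genes tested, 23 rose and 1 fell with stroke and microglia, which is 30.7% and 1.33%, against 5.14% and 3.31% of all genes. With stroke after depletion 12 rose and 2 fell, 16% and 2.67% against 6.59% and 5.84%. With depletion in sham mice 9 rose and 13 fell, 12% and 17.3% against 6.85% and 4.49%. After depletion in occluded mice 6 were higher and 16 lower, 8% and 21.3% against 9.36% and 9.26%, so that the share of higher genes was near that of all genes. In this order of comparisons, their median changes of 0.34, 0.15, -0.09 and -0.09 stood beside 0.02, 0, 0 and -0.01 for all genes. In the interaction 0 of the 75 passed by edgeR, with 19 at an unadjusted p under 0.05 (25.3%, against 9.72% of all genes) and 5 by DESeq2.

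**Figure D4:**
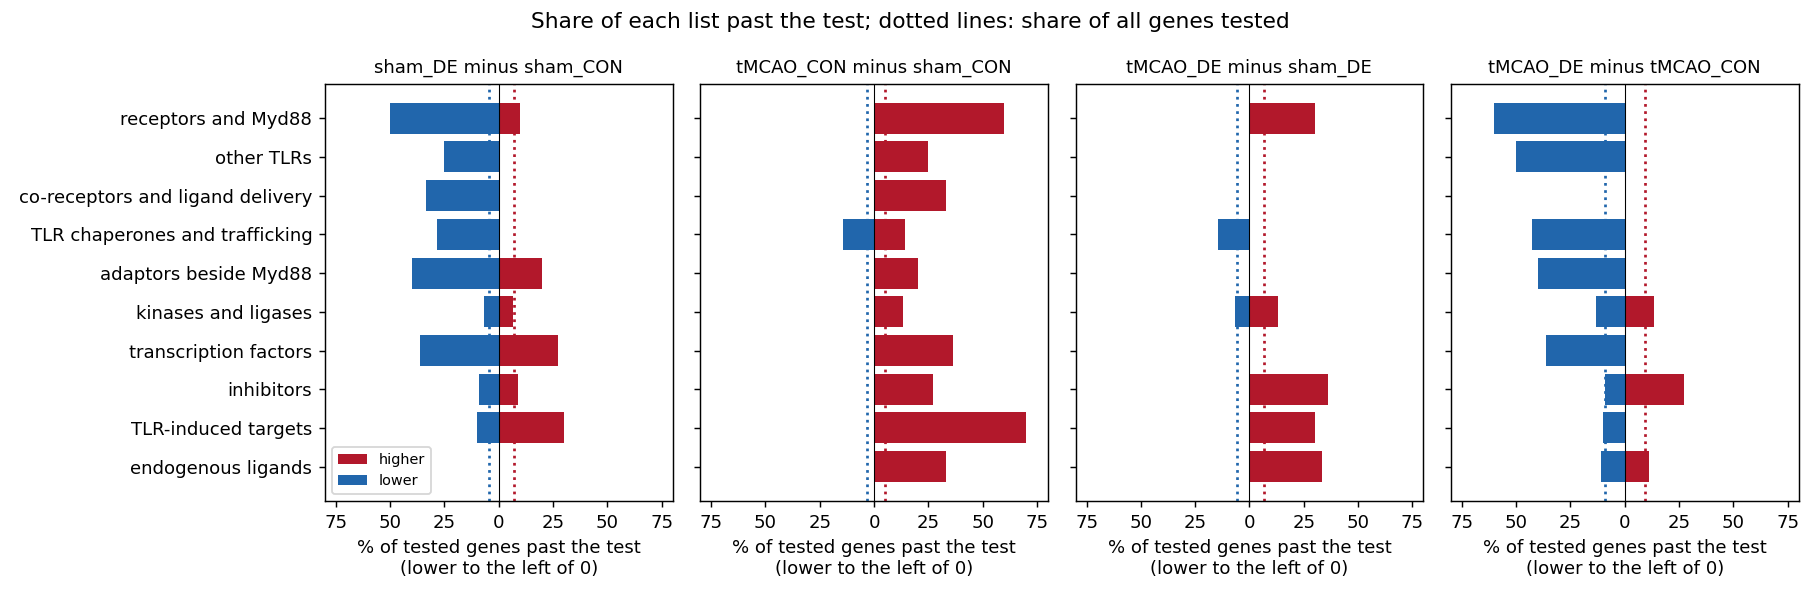
Share of the tested genes of each list that were higher (red, right of 0) or lower (blue, left of 0) past the test in 4 comparisons, with dotted lines at the shares of all genes tested. With stroke and microglia 6 of the 10 receptor genes and 7 of 10 induced targets are higher, and after depletion in occluded mice 6 of the 10 receptor genes are lower.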

How the data were processed

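Counts and FPKM of 13 libraries were taken from the 4 tables deposited by the authors, 1 per group. Per the file headers, counts are whole numbers per gene and library without normalisation, and FPKM values deposited by the authors are scaled to gene length and library size. The build mm10 and the tools Cuffdiff and Cufflinks 2.1.1 are listed per the submitters' processing notes, with aligner, annotation and strand setting not given in the sources used here. Columns were matched by the animal identifier in the titles. Counts of 29 repeated symbols were summed, 24 names turned into dates were left out, and genes of only the sham (1002) or tMCAO tables (1052) were not tested. TMM factors, filterByExpr and a quasi-likelihood fit of 4 group means (edgeR 4.0.16, R 4.3.3) were followed by 5 two-sided contrasts with Benjamini-Hochberg adjustment. Standard errors are the absolute log2 fold change over the square root of F. The fit was tested on simulated data. DESeq2 1.42.0 was an alternative. Whether the mice came from separate litters or days is not stated, so p-values measure the spread between these animals. Replicate numbers were not taken to pair animals. Totals of 16239763 to 22080367 counts leave genes below 1 CPM with about 20 counts or fewer per library, which limits their precision. The members, gene lists and alternatives were chosen with earlier results of these data known. Members are named in every comparison, listed genes only where they pass the test, at most 4 per list, and Ly96, Unc93b1, Tirap and Ticam1 in any case. Nfkb2, Relb and Rela are an exception, and a gene named in 1 comparison may be given in another. Coordinates are from GENCODE on GRCm38, start-site sequences from RefSeq on GRCm38.p6.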

Additional observations from a re-analysis of the deposited data

Results flagged for a closer look

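Among 20 groups of 4 libraries examined for a library far from the others, Tlr9 in sham_DE stood out, with replicate 2 at 0.136 CPM against 0.342 to 0.378 CPM in the other 3. That value rests on 3 counts, and chance flags about 1 in 20 such groups. The response to stroke differed between depleted and control mice for Cd180, by -3.06 on the log2 scale (edgeR adjusted p = 0.028), and for Tlr13, by -1.64 (edgeR adjusted p = 0.036).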

How the results depend on the processing

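Of 939 values of single genes recomputed under another setting, 853 kept their direction and side of the threshold, 71 lost a call, 3 gained it and 12, none of them past the test, changed sign. With only the groups compared in the fit, 3 of the 10 genes passed in sham_DE against sham_CON, and 645 of all genes in place of 1921, and 1137 in place of 2106 in tMCAO_DE against sham_DE. In tMCAO_DE against tMCAO_CON 5 of the 10 passed under this setting in place of 6, without Cd14. Without sham_CON replicate 2 and sham_DE replicate 3, which had high neutrophil markers, 2 of the 10 and 219 genes passed in sham_DE against sham_CON, and 0 of the 10 and 1 gene in the interaction by edgeR (3 of the 10 at an unadjusted p under 0.05). Without this pair Ly86 was at 0.81 in tMCAO_DE against sham_DE and Tlr7 at 0.05 in the interaction. DESeq2 called 111 genes in the interaction in place of 8, and 3 of the 10 in place of 2. Size factors as in DESeq2 and no filter on low counts moved no count of calls by over 1.5 times. The cause of these shifts was not tested.

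With the replicate number as a block, 823 genes passed in sham_DE against sham_CON, 1341 in tMCAO_DE against sham_DE and 2 in the interaction, where 0 of the 10 passed by edgeR and 4 were at an unadjusted p under 0.05. Calls of Cd180 and Tlr13 ended in the first and the last of these and that of Tlr3 in the second, and Ly86 in tMCAO_DE against sham_DE was at 0.18. Deviations of same-numbered libraries correlated between -0.064 and 0.106, and those of differently numbered libraries between -0.138 and 0.136. With so few libraries per group, these values cannot decide whether same-numbered animals shared a litter or day.

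Leaving out 1 library at a time gave 1 to 7 of the 10 genes and 591 to 3725 of all genes in sham_DE against sham_CON, 5 to 6 and 564 to 1814 in tMCAO_CON against sham_CON, 1 to 3 and 453 to 2096 in tMCAO_DE against sham_DE, 3 to 6 and 346 to 3873 in tMCAO_DE against tMCAO_CON, and 0 to 3 and 1 to 15 in the interaction. The sign changed for Tlr9 in tMCAO_CON against sham_CON (-0.42 to 0.05) and, in tMCAO_DE against sham_DE, for Tlr4 (-1.11 to 1.36) and Ly86 (-0.43 to 0.81). In the interaction it changed for Tlr4 (-2.18 to 0.29), Cd14 (-0.08 to 0.54) and Myd88 (-0.23 to 0.01). Tlr9 could not be fitted in tMCAO_DE against sham_DE with only those groups, since it did not pass the filter there. Depth limits Tlr9 and Cd14 most, with 2 to 7 counts per library of Tlr9 in the depleted groups and 5 to 9 of Cd14 in sham_DE.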
